A study of Mus musculus with 12 samples.

Results

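Selenocysteine is the selenium-containing amino acid of a small family of enzymes, the selenoproteins, and the genes that make it and the main selenoproteins were examined in RNA sequencing libraries of mouse brain perivascular macrophages. The 10 genes were taken by symbol from the 17358 genes of the deposited table, and all 10 were present. They were Sephs2, Sephs1, Sepsecs, Pstk, Secisbp2, Gpx1, Gpx4, Txnrd1, Txnrd2 and Selenop. The set was chosen by a measured value of these same libraries, the higher Sephs2 level in old animals, so the age comparison of its genes is given as a description. The libraries came from brains of C57BL mice aged 18 months (aged, n = 5) or 3 months (young, n = 7), and no genotype or treatment is given. Perivascular macrophages lie along the vessels of the brain. The design text calls them biological replicates. The sources used here do not say how many animals or cells gave each library, how the cells were isolated, or the sex of the mice.

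Selenocysteine is built on its own transfer RNA and is inserted at UGA codons, which otherwise stop translation. Pstk phosphorylates the serine first loaded on that transfer RNA, Sephs2 supplies selenophosphate as the selenium donor, and Sepsecs uses both to form selenocysteine. A stem-loop in the 3' untranslated region of the messenger RNA, bound by Secisbp2, marks the UGA for recoding. The products include glutathione peroxidases, which remove peroxides, thioredoxin reductases, which keep thioredoxin reduced, and selenoprotein P (Selenop), a secreted selenium carrier. Sephs2 is itself a selenoprotein, so its own product is needed to make it.

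The recoded codons set these genes apart, and their surroundings in the coding sequence are shown with the codon in capitals. Coding sequences come from GENCODE M21 transcripts on GRCm38. Sephs1, the paralog of Sephs2, is given at the codon that aligns with the recoded one.
Sephs2: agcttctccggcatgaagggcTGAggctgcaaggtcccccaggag
Sephs1: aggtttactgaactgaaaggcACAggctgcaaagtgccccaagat
Gpx1: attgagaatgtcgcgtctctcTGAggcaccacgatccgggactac
Gpx4: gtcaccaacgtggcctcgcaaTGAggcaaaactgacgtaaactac
Txnrd1: gacatcctccagtctggctgcTGAggttaa
Txnrd2: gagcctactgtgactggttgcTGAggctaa
Selenop: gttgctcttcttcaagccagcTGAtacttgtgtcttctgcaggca

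In Sephs2 the TGA is codon 63 of 452, at chr7:127273731-127273733 on the minus strand. The gene is a single exon (chr7:127271879-127274055), so no splice junction follows the codon. Sephs1, on chr2:4881564-4910557, has 9 exons and an ACA codon at the aligned position, codon 29, and 68.5% of 1173 aligned coding bases were identical between the 2 genes. In Gpx1 (chr9:108338903-108340343) the TGA is codon 47 (chr9:108339451-108339453, plus strand), in the first of 2 exons and 105 bases before the junction. In Gpx4 (chr10:80047166-80056439) it is codon 129 of the transcript used (chr10:80054737-80054739, plus strand), in exon 3 of 7 and 342 bases before the last junction. A stop codon upstream of a junction can mark a messenger RNA for nonsense-mediated decay, which is background and was not measured here. In Txnrd1 (chr10:82833951-82897712) the TGA is codon 612 of 613, and in Txnrd2 (chr16:18426384-18479073) it is codon 526 of 527. In both genes the TGA lies in the last exon, close to the stop codon, which is why their sequences are short. The TGA lies at chr10:82896037-82896039 in Txnrd1 and at chr16:18477772-18477774 in Txnrd2, both on the plus strand. Selenop (chr15:3268547-3280508) holds 10 such codons. The first is codon 59 (chr15:3274848-3274850, plus strand), in exon 2, and 9 are in the last exon, where the last 4 span chr15:3279663-3279698 and are shown with the bases on either side.
Selenop, last 4 selenocysteine codons: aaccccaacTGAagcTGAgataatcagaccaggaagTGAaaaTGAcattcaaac

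Library totals ranged from 23214816 to 30628789 estimated counts, and between 10279 and 11589 genes had a count above 0. Aged libraries 1, 3 and 4 stood apart from all the others on the first principal component (scores from 76.1 to 104.8, against at most -10.8 elsewhere), and aged libraries 3 and 4 had the lowest totals. Totals averaged 26222244 ± 2872552 in aged and 28766060 ± 1751585 in young libraries (SD). The label was checked against fixed markers. The 12 perivascular macrophage markers summed to between 12529 and 18911 normalised CPM (counts scaled to a common library size) in aged libraries, against between 12959 and 22104 in the young (p = 0.99, exact permutation test, two-sided). Microglia markers summed to between 3702 and 5558 CPM in aged and between 3551 and 6839 in young libraries. The sums of endothelial and mural, oligodendrocyte, astrocyte, neuron, monocyte and neutrophil, and lymphocyte markers stayed at or under 160 CPM in every library, and those of red cell markers at or under 248. The 10 choroid plexus and ependyma markers summed to between 257 and 1314 CPM in aged libraries, against between 63.2 and 183 in the young (p = 0.00126, exact permutation test, two-sided, the smallest the 792 splits allow, and 0.0126 adjusted over the 10 marker lists). Ttr made up most of that sum, and Aqp1 had at most 3 counts in every library. Of the 10 markers, 4 had enough counts for the edgeR test below, all with positive log2 fold changes, and only Ttr was called. Foxj1 had 0 counts in every aged library and 168 in young library 6. Otx2 had 230 counts in young library 1 and at most 27 in aged libraries. In this bulk RNA, fewer cells of a type and less RNA per cell cannot be told apart.

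Sephs2, the selenophosphate synthetase, was higher in all 5 aged libraries than in any young one. The aged libraries 1 to 5 held 312, 130, 575, 398 and 139 CPM, against 62.2 (lowest), 72.6 (median) and 93.2 (highest) in the 7 young libraries. The groups did not overlap, and aged libraries 1, 3 and 4 held more than 3 times the highest young value. Means were 311 ± 187 CPM in aged and 75.6 ± 12.9 CPM in young libraries (SD, n = 5 and n = 7), with a fitted log2 fold change of 2.04 ± 0.34 (SE). On the per-length scale Sephs2 had 132 ± 68.6 FPKM (counts scaled by library size and transcript length) in aged and 37.5 ± 10.1 FPKM in young libraries. By mean FPKM it ranked 758 in aged and 1929 in young libraries among all genes of the table. Each library gave at least 1731 Sephs2 counts. The libraries carry no molecular identifiers, so the number of molecules behind these counts, and its sampling error, are not known. The gene shares 792 exonic bases with Gm44729, a tentative model on the opposite strand, and the libraries do not mark the strand.

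**Figure D1:**
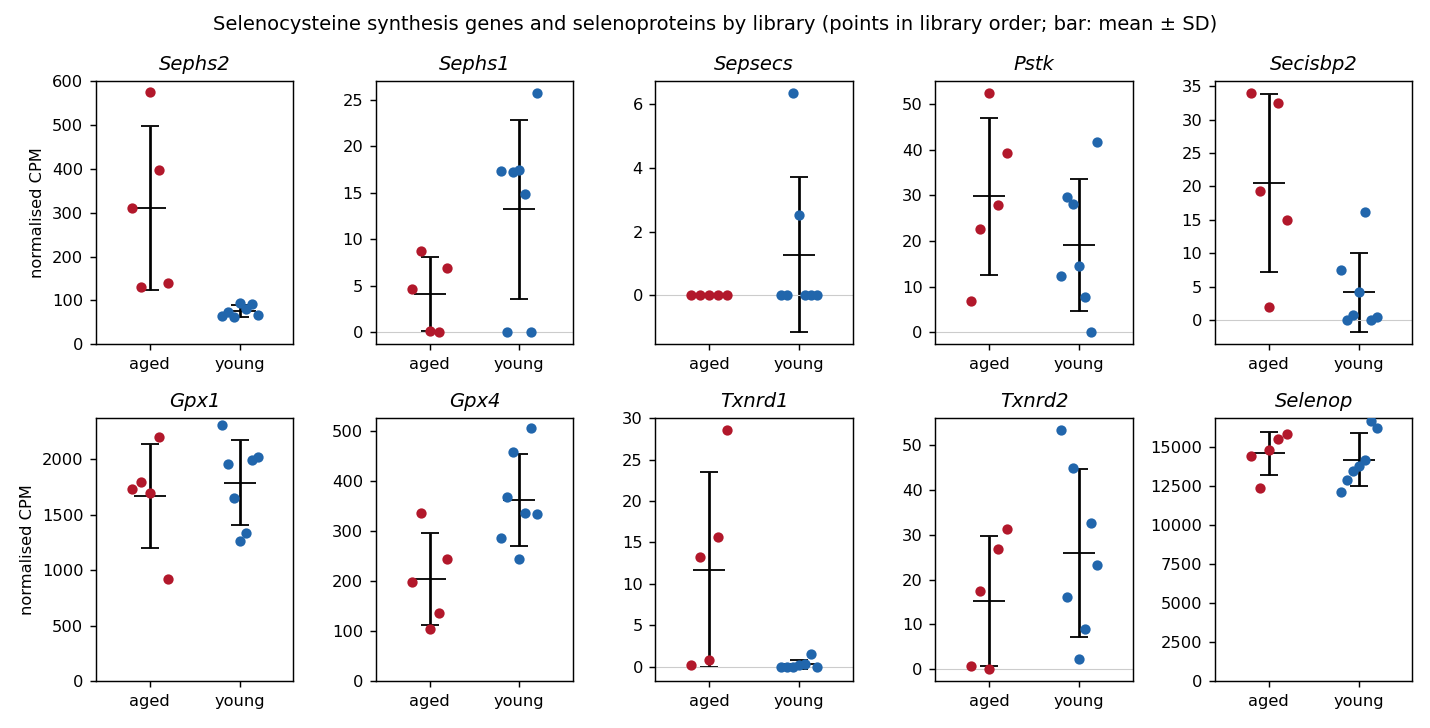
Normalised CPM (vertical axes, linear) of the 10 genes in each aged (red, left) and young (blue, right) library, with mean and SD; points follow library number. The 5 aged libraries lie above all 7 young ones for Sephs2, from 130 to 575 CPM, and the groups overlap for the other 9 genes.

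The size of the Sephs2 difference moved with the libraries that stood apart. The fit that left out aged libraries 1, 3 and 4 gave a log2 fold change of 0.82, with aged libraries 2 and 5 at 130 and 139 CPM, above the highest young value of 93.2. Leaving out 1 library at a time gave values between 1.66 (without aged library 3) and 2.24 (without aged library 2). Choroid plexus marker sums, made up mostly of Ttr, were also higher in aged libraries. They were 609, 1134, 527, 1314 and 257 CPM in aged libraries 1 to 5. Aged library 4 was high and aged library 5 low in both the sum and Sephs2, whereas aged library 2 had a high sum with the lowest aged Sephs2 and aged library 3 a low sum with the highest. The part of depth, of the markers and of whatever set these 3 libraries apart was not tested.

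**Figure D2:**
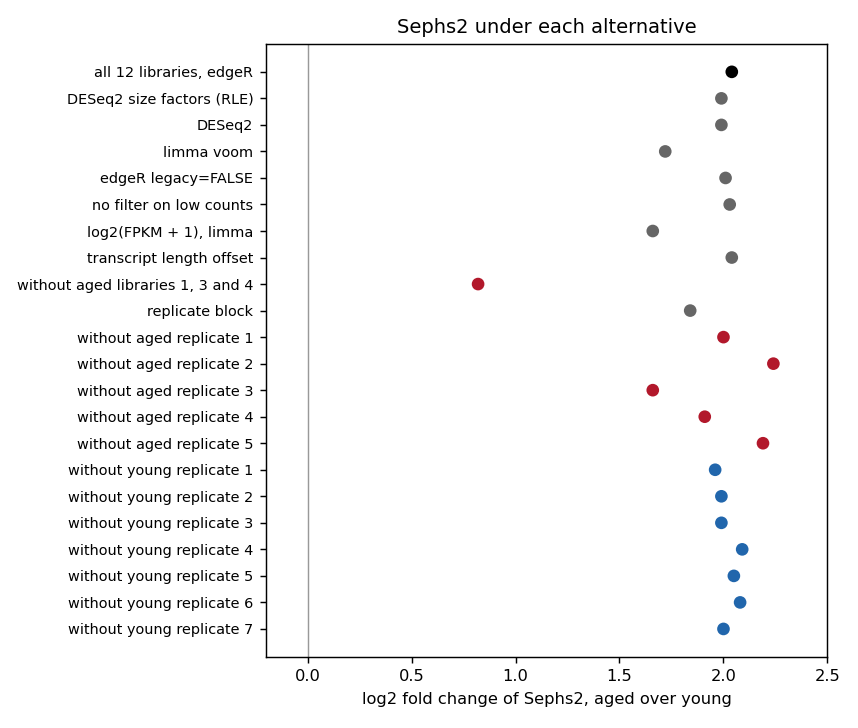
Fitted log2 fold change of Sephs2, aged over young (horizontal axis), under each alternative (vertical axis); the black point uses all 12 libraries, red points leave out aged libraries, blue points young ones, grey points change the tool, scaling, filter or model. Values range from 0.82 without aged libraries 1, 3 and 4 to 2.24 without aged library 2.

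The edgeR quasi-likelihood test over all 9550 tested genes called 1 gene (0.0105%), Ttr, which was higher, and 0 lower (0%). Of the 10, 9 passed the filter on low counts and 0 were called. Of these 9, 3 had an unadjusted p under 0.05, a level that 5.97% of all tested genes reached. Sephs2, for which the set was chosen, was among the 3, and 2 of the other 8 reached that level. DESeq2 called 1 of the 9, Sephs2, where it called 1.3% of all genes (0.687% higher and 0.612% lower). edgeR with legacy=FALSE called Sephs2 alone of the 9, where it called 0.398% (0.377% higher and 0.0209% lower). limma with voom called 0 of the 9, where it called only 2 genes higher and 0 lower among all genes tested. The edgeR test also called Sephs2 without a filter on low counts (0.0753% of genes called, all higher), without aged library 2 (0.755%, with 0.614% higher and 0.141% lower) and without aged library 5 (0.0302%, all higher). Over all tested genes, 0.325% had every aged library above every young one, and Sephs2 was the only such gene of the 9. The gene was chosen for this difference, so nothing is read from these counts. The 9 tested genes, Sephs2 included, had 5 positive and 4 negative log2 fold changes with a median of 0.04. The 8 other than Sephs2 had 4 positive and 4 negative values with a median of -0.03. All tested genes had a median of -0.01 with 49.5% positive.

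The paralog Sephs1, which is not known to make selenophosphate in mammals, was sparse. Aged libraries 1 to 5 held 4.63, 8.77, 0.1, 0.0479 and 6.9 CPM. The young libraries held 0 (lowest), 17.2 (median) and 25.7 (highest) CPM, with 2 young libraries at 0. Aged libraries 3 and 4, the highest in Sephs2, had 2 and 1 Sephs1 counts. The groups overlapped, and the fitted log2 fold change was -1.69 ± 1.75 (SE), smaller than its error, and -0.75 without aged libraries 1, 3 and 4. Aged means were 1.01 ± 0.987 FPKM for Sephs1 and 132 ± 68.6 FPKM for Sephs2, and young means 3.37 ± 2.44 FPKM and 37.5 ± 10.1 FPKM. Sephs2 was therefore the main transcript of the pair in both groups, higher in each library.

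The other synthesis genes were low and uneven between libraries. Sepsecs, the final enzyme of the synthesis, had 0 counts in all 5 aged libraries and counts in only 2 of 7 young ones, young libraries 3 and 4 (189 and 81 counts, 6.35 and 2.53 CPM). It did not pass the filter and has no fold change. A count of 0 allows up to 3 counts, which is between 0.098 and 0.129 CPM in these libraries, so Sepsecs was not detectable at this depth in 10 of 12 libraries. Pstk held 6.84, 22.7, 52.4, 27.9 and 39.2 CPM in aged libraries 1 to 5, against 0 (lowest), 14.4 (median) and 41.7 (highest) in young ones. Its groups overlapped, with a log2 fold change of 0.64 ± 1.06 (SE). Pstk shares 4652 exonic bases with Ikzf5 on the opposite strand in the GENCODE models, and the libraries do not mark the strand, so its level is uncertain. Ikzf5 had 1.13 ± 2.22 CPM in aged and 22.7 ± 32.1 CPM in young libraries.

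Secisbp2, which binds the stem-loop that recodes UGA, was above 3 counts in 5 of 5 aged and 5 of 7 young libraries. Aged libraries 1 to 5 held 34.0, 19.3, 1.90, 32.5 and 14.9 CPM, and young libraries 0 (lowest), 0.773 (median) and 16.1 (highest). Of the aged libraries, 3 lay above the highest young one, and aged libraries 3 and 5 lay inside the young range. The log2 fold change of 2.31 ± 1.54 (SE) was fitted with a wide error and was not called. It was 3.29 without young library 5, 4.55 with limma and voom, and 2.06 without aged libraries 1, 3 and 4. On/off patterns of this kind were common at these levels: of 5482 tested genes with a mean between 5 and 50 CPM, 65.7% had 3 counts or fewer in at least 1 library, against 4.2% of the 2366 genes between 50 and 500 CPM.

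Among the glutathione peroxidases, Gpx1, the abundant cytosolic enzyme, overlapped between the groups. It held 1736, 1799, 1692, 2206 and 918 CPM in aged libraries 1 to 5, against 1263 (lowest), 1961 (median) and 2306 (highest) in young ones. Aged library 5 alone lay below the young range. The log2 fold change was -0.10 ± 0.22 (SE), and 0.03 without aged library 5.

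Gpx4, which reduces lipid peroxides in membranes and protects cells from ferroptosis, was lower on average in aged libraries. Aged libraries 1 to 5 held 198, 336, 104, 136 and 244 CPM, against 244 (lowest), 335 (median) and 506 (highest) in young ones. Means were 204 ± 92 CPM in aged and 361 ± 92.3 CPM in young libraries (SD), and the log2 fold change was -0.83 ± 0.29 (SE). It was not called over all genes tested (edgeR quasi-likelihood test, adjusted p = 0.499). Aged libraries 1, 3 and 4 lay below every young library, whereas aged libraries 2 and 5 lay within or at the edge of the young range. These 3 were the libraries with the most Sephs2, and the highest in Sephs2, aged library 3, was the lowest in Gpx4. Without them the log2 fold change of Gpx4 was -0.32.

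**Figure D3:**
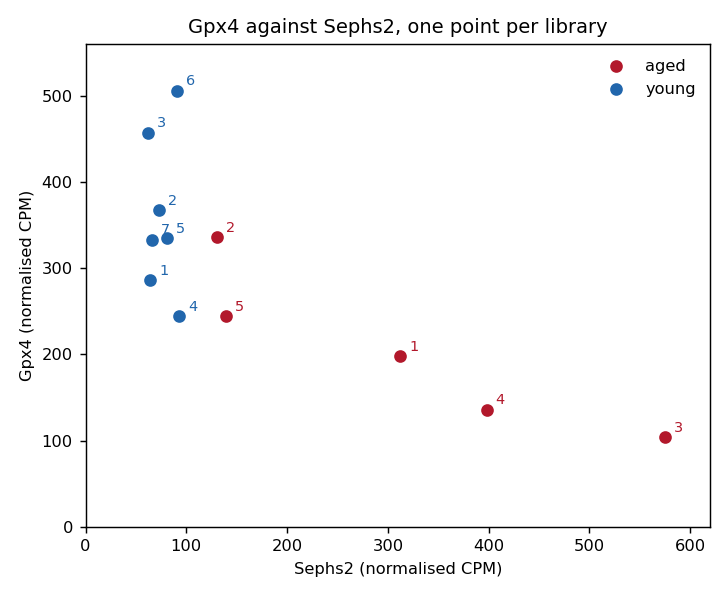
Gpx4 (vertical axis) against Sephs2 (horizontal axis), both in normalised CPM, with 1 point per library, numbered, aged in red and young in blue. Aged libraries 1, 3 and 4 have between 312 and 575 CPM of Sephs2 and between 104 and 198 CPM of Gpx4, apart from the other 9.

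The thioredoxin reductases were sparse. Txnrd1, the cytosolic enzyme, held 0.282, 13.3, 0.801, 15.7 and 28.6 CPM in aged libraries 1 to 5. The young libraries held 0 (lowest), 0.037 (median) and 1.57 (highest) CPM, with at most 46 counts in any of them. Aged libraries 2, 4 and 5, with 394, 327 and 853 counts, lay above every young library, and aged libraries 1 and 3 within their range. These are not the libraries with the most Sephs2, apart from aged library 4. The fitted log2 fold change of 5.17 ± 1.83 (SE) was not called (edgeR quasi-likelihood test, adjusted p = 0.5), and on the log2(FPKM + 1) scale it was 1.57. It was 6.65 without young library 6, 4.50 without aged library 5 and 5.98 without aged libraries 1, 3 and 4. It kept its sign in all alternatives run. Txnrd2, the mitochondrial enzyme, ran from 0 to 31.3 CPM in aged libraries and from 2.28 to 53.5 CPM in young ones. Its groups overlapped (log2 fold change -0.77 ± 1.22, SE, and -0.11 without aged libraries 1, 3 and 4).

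Selenop was among the most abundant transcripts of these macrophages. It held 14434, 12345, 14816, 15487 and 15826 CPM in aged libraries 1 to 5, against 12128 (lowest), 13785 (median) and 16631 (highest) in young ones. All aged libraries lay within the young range. Its log2 fold change was 0.04 ± 0.15 (SE), and the sign turned to as low as -0.09 under some alternatives. By mean FPKM, Selenop ranked 18 in aged and 16 in young libraries among all genes of the table. Its coefficient of variation was 9.36% in aged and 11.8% in young libraries, against 60.1% and 17.1% for Sephs2. Its transcript overlaps Ccdc152 on the opposite strand over 439 exonic bases, and Ccdc152 averaged 0.102 FPKM in aged and 0.103 FPKM in young libraries.

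Levels per length put the 10 genes in nearly the same order in both groups. In aged libraries the order by mean FPKM was Selenop (7010 ± 1169, SD), Gpx1 (1564 ± 333), Gpx4 (221 ± 117) and Sephs2 (132 ± 68.6), then Pstk (26.1 ± 15.1), Txnrd2 (8.35 ± 8.24), Secisbp2 (6.42 ± 3.73), Txnrd1 (3.65 ± 3.99), Sephs1 (1.01 ± 0.987) and Sepsecs (0). In young libraries it was Selenop (7514 ± 1310), Gpx1 (1865 ± 221), Gpx4 (419 ± 104), Sephs2 (37.5 ± 10.1), Pstk (18.3 ± 13.4), Txnrd2 (14.2 ± 9.82), Sephs1 (3.37 ± 2.44), Secisbp2 (1.42 ± 2.1), Sepsecs (0.806 ± 1.44) and Txnrd1 (0.104 ± 0.178). Selenop, Gpx1 and Gpx4 had ranges that did not overlap with each other in either group. Gpx4 and Sephs2 did not overlap in young libraries, where Gpx4 was higher in 7 of 7. In aged libraries Gpx4 was higher in only 3 of 5, and the 2 ranges overlapped. Sephs2 was apart from Pstk in aged libraries and overlapped with it in young ones. From Pstk downwards, neighbours in the order overlapped in both groups, except Sephs1 and Sepsecs in aged libraries.

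The 22 selenoprotein genes of the table together made up 1.43% ± 0.14 of all FPKM in aged and 1.51% ± 0.205 in young libraries (SD, n = 5 and n = 7). Selenop alone held 62.2% ± 7.05 of this selenoprotein total in aged and 61.1% ± 6.47 in young libraries, a difference smaller than the spread. Sephs2 held between 0.532% and 2.19% of it in aged and between 0.235% and 0.439% in young libraries, and ranked 9 in aged and 10 in young libraries among the 22.

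**Figure D4:**
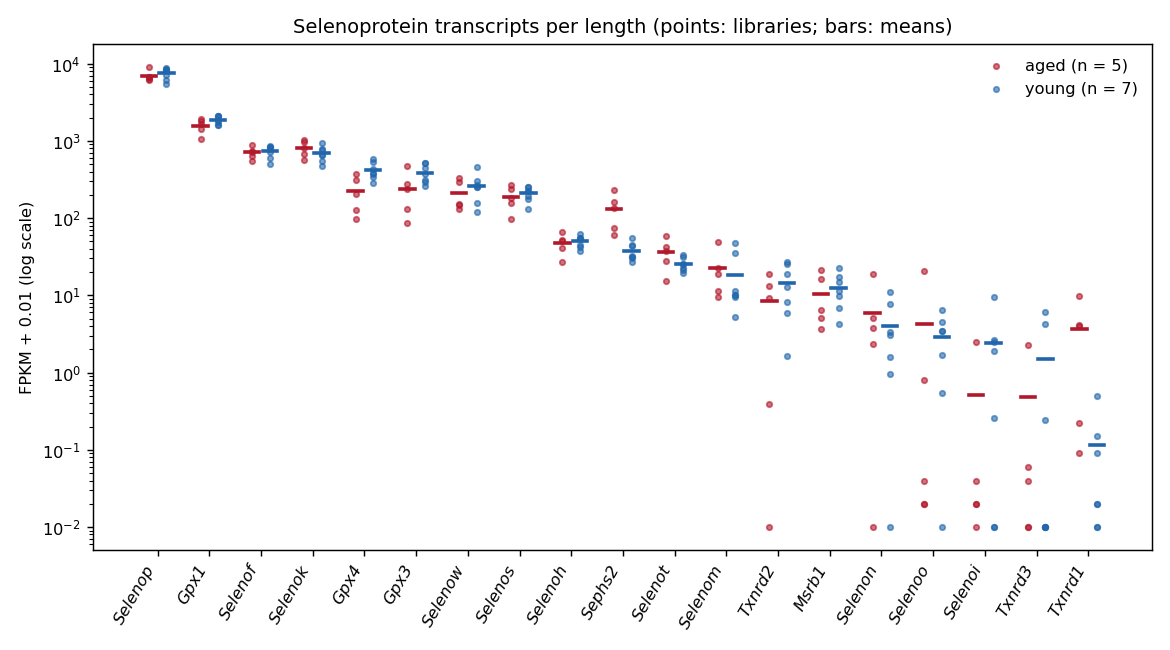
FPKM + 0.01 (vertical axis, log scale) of the selenoprotein genes above 0.1 FPKM on average in either group, ordered by the young mean, with aged libraries in red left of young ones in blue; bars are means. Selenop lies above all others at 7010 FPKM in aged and 7514 FPKM in young libraries, and the groups separate for Sephs2.

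The other selenoproteins gave no call. Of 18 listed, 16 were in the table and 12 passed the filter, 8 with positive and 4 with negative log2 fold changes (median 0.10). None was called and none had an unadjusted p under 0.05 by the edgeR test. DESeq2, limma with voom and edgeR with legacy=FALSE called 0 as well. The most abundant per length were Selenok and Selenof, residents of the endoplasmic reticulum, and Gpx3, the secreted peroxidase. Selenok averaged 809 FPKM in aged and 691 FPKM in young libraries, with a log2 fold change of 0.38 ± 0.27 (SE). Selenof averaged 709 and 733 FPKM in aged and young libraries (log2 fold change 0.09 ± 0.23). Gpx3 averaged 241 and 387 FPKM in aged and young libraries (log2 fold change -0.60 ± 0.33, and -0.05 without aged libraries 1, 3 and 4). Aged libraries 3, 4 and 5, at 224, 149 and 353 CPM, lay below the lowest young one at 366 CPM. Aged libraries 1 and 2, at 378 and 702 CPM, lay within the young range, which reached 742 CPM. Selenoi, an enzyme of phospholipid synthesis, was the only other with an absolute log2 fold change above 1 (-2.30 ± 2.03, SE). It reached 73.5 CPM in young library 1 and 16.9 CPM in aged library 2, and was at or under 0.25 CPM in the other aged libraries. Its log2 fold change was -7.49 without aged library 2, -1.14 without young library 1 and -0.97 without aged libraries 1, 3 and 4.

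The remaining genes of selenocysteine incorporation, recycling and uptake numbered 12, of which 10 passed the filter, 4 with positive and 6 with negative log2 fold changes (median -0.38). By edgeR none was called and 1 had an unadjusted p under 0.05. That gene was Alkbh8, which modifies the wobble base of the selenocysteine transfer RNA. It held 35.3, 10.8, 1.45, 83.8 and 11.1 CPM in aged libraries 1 to 5, against 1.04 (lowest), 2.37 (median) and 4.84 (highest) in young ones. Aged library 3 lay within the young range and the other aged libraries above it. The fitted value was 3.39 ± 1.10 on the log2 scale (SE), 2.42 without aged library 4 and 2.0 without aged libraries 1, 3 and 4. It was 4.34 in the fit that allowed for transcript length in each library. The adjusted p was 0.414 in edgeR's quasi-likelihood test and 0.0166 in DESeq2. Its estimated counts were fractional in all 12 libraries, as happens where reads are divided among features, though the fractional part was 0.165% of its counts. Aged library 4 had 24.89 FPKM at 1751 counts, and aged library 1 had 4.33 FPKM at 877 counts. The length behind its FPKM thus differed between libraries, so its level is uncertain. Trnau1ap, a protein associated with that transfer RNA, averaged 21.3 FPKM in aged and 51.6 FPKM in young libraries (log2 fold change -1.48 ± 0.97), and was at 0.05 and 1.96 CPM in aged libraries 3 and 4. Its value was -2.08 without aged library 5 and -0.66 without aged libraries 1, 3 and 4. Eif4a3, which can bind the recoding stem-loop, averaged 18.1 FPKM in aged and 43.3 FPKM in young libraries (-1.04 ± 0.58, and -2.16 without aged libraries 1, 3 and 4). Rpl30, a ribosomal protein that binds the same stem-loop, averaged 530 and 574 FPKM in aged and young libraries (0.02 ± 0.28), with fractional counts in 5 libraries. Lrp8 and Lrp2, receptors that take up selenoprotein P in other tissues, did not pass the filter.

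Of 11 thioredoxin and glutathione partners and cysteine-type peroxidases, 9 passed the filter, 3 with positive and 6 with negative log2 fold changes (median -0.30). None was called or had an unadjusted p under 0.05 by edgeR, and DESeq2 and limma with voom called 0. Txn1, the substrate of Txnrd1, averaged 184 FPKM in aged and 185 FPKM in young libraries (log2 fold change 0.13 ± 0.28, SE). Txn2, its mitochondrial counterpart, averaged 78.2 and 122 FPKM in aged and young libraries (-0.51 ± 0.42), and Txnip, an inhibitor of thioredoxin, 182 and 236 FPKM (-0.22 ± 0.22). Txnip shares 606 exonic bases with the antisense model Gm15441. Gsr, the glutathione reductase, had the only absolute change above 1 at a mean of at least 10 CPM (-2.06 ± 1.55). It ran from 0 to 9.11 CPM in aged libraries, with a median of 4.85. The young libraries held 0 (lowest), 20.2 (median) and 32.9 (highest) CPM, so the groups overlapped.

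**Figure D5:**
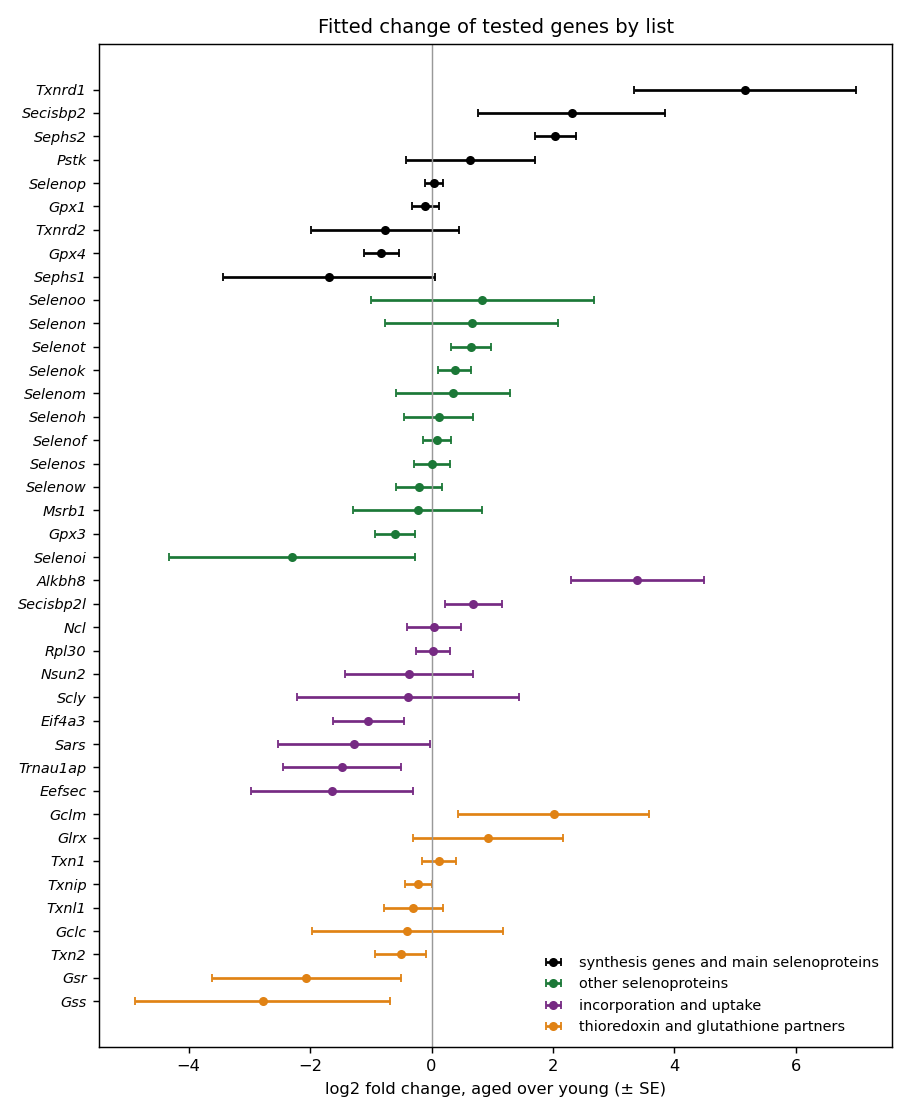
Fitted log2 fold change, aged over young, with SE (horizontal axis) of each tested gene of the 4 lists (vertical axis, colours). Sephs2 is at 2.04 with a narrow error, and sparse genes such as Txnrd1 at 5.17 and Selenoi at -2.30 have wide errors.

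Other genes followed Sephs2 closely from library to library. Among 2659 other tested genes with a mean of at least 50 CPM, the likeness over the 12 libraries, as Pearson's r of log2(CPM + 1), was highest for Clasp2 (0.968), Fli1 (0.962), Ythdf2 (0.953), Lrrc69 (0.947) and Dcaf10 (0.931). These values are a description: the libraries share depth and the split by age, and the measure rests largely on aged libraries 1, 3 and 4. After subtracting each group's mean, Lrrc69, Fli1, Clasp2, Dcaf10 and Klhl9 were nearest (0.902 to 0.938). Clasp2, a microtubule-binding protein, averaged 906 ± 436 CPM in aged and 333 ± 50.6 CPM in young libraries, and Fli1, an ETS transcription factor, 820 ± 506 and 271 ± 60.3 CPM. Without aged libraries 1, 3 and 4, 0 of the 5 nearest genes were the same on either basis. Over the 12 libraries, Selenop (r = 0.288) and Gpx1 (r = 0.010) were far from Sephs2 in this order, and Gpx4 (r = -0.885) ranked 2654 of 2659. After subtracting each group's mean, r was 0.307 for Selenop, 0.287 for Gpx1 and -0.775 for Gpx4, which then ranked 2640.

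The promoter of Sephs2 is shown because the set was chosen for this gene. The window covers 250 bases before and 50 after the transcription start (RefSeq, GRCm38.p6, chr7:127274010-127274309, minus strand). Capitals mark matches to the letters searched on both strands.
Sephs2 promoter: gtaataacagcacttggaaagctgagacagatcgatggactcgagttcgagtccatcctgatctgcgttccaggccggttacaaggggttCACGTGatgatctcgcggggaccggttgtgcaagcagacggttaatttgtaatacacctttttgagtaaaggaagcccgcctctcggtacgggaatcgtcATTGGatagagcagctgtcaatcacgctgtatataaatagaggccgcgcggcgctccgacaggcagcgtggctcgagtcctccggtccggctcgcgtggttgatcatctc

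The window held 1 E-box (CACGTG), which 7.2% of all 32851 promoter windows of that length hold, and 1 CCAAT box, held by 37.4%. It held no antioxidant response element (TGACNNNGC, in 12.4% of windows) and no GC box (GGGCGG, in 35.7%). Of the 10 genes, 9 had a promoter in the table. Among these, the E-box letters were also found for Secisbp2, and the antioxidant response element letters for Txnrd1, in 1 of its 3 windows. No searched motifs overlapped in the Sephs2 window. These matches describe the letters only.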

How the data were processed

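RNA of mouse brain perivascular macrophages was made into SMART-seq2 cDNA with oligo-dT priming and Nextera XT libraries, per the labels' protocols, a chemistry without strand marks or molecular identifiers. The authors deposited 1 table of estimated counts per gene, rounded here before testing, and of values read as FPKM deposited by the authors, since they scale with count, total and a plausible length. The submitters' processing notes name RSEM 1.2.12, HISAT2 2.0.4, DESeq2 1.4.5 and Bowtie2 2.2.5, with no role, and GRCm38 (mm10). Which annotation was counted is not given in the sources used. No column of another sample was present, and 23 damaged symbols were replaced through Entrez identifiers.

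Aged and young libraries were compared over the whole table with edgeR 4.0.16 in R 4.3.3 (quasi-likelihood test, legacy and robust estimation, TMM factors, filterByExpr), with Benjamini-Hochberg adjusted p under 0.05 as the threshold. A positive log2 fold change means a higher level with age, SE was derived from the F statistic, and the test was tried on simulated counts. DESeq2 1.42.0 and limma 3.58.1 were alternatives. Levels are TMM-normalised CPM, and levels between genes are compared in FPKM. Floors of 3 counts cover counting error only. Marker lists of 10 cell types were summed as CPM. The genes and the 3 pathway lists were chosen with earlier results of these data known. Named from the lists were the 3 highest by FPKM, any called gene, and any with an absolute log2 fold change above 1 and at least 10 CPM.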

Additional observations from a re-analysis of the deposited data

Results flagged for a closer look

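In 6 of 43 groups examined (each described gene in 5 aged or 7 young libraries) 1 library lay far from the rest, by the gap to its nearest neighbour over the whole range. The cut-off flags about 1 in 20 groups of normally distributed values. CPM that are skewed or at 0 in many libraries do not meet that condition, so no excess over this rate is read from the count. Sepsecs had 6.35 CPM in young library 3, with the next at 2.53 and the lowest at 0. Txnrd1 had 1.57 CPM in young library 6, with the next at 0.381. Selenoi had 16.9 CPM in aged library 2, with the next at 0.25, and 73.5 CPM in young library 1, with the next at 17.2. Rpl30 had 443 CPM in aged library 5, with the next at 249, and Txn1 had 297 CPM in young library 1, with the next at 193.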

How the results depend on the processing

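Counts of called genes depended on the tool and on single libraries, and the causes were not tested. In place of 1 higher and 0 lower, DESeq2 called 64 higher and 57 lower, edgeR with legacy=FALSE 36 and 2, limma on log2(FPKM + 1) 3 and 3, limma with voom 2 higher, edgeR without a filter 13 higher, and edgeR without aged libraries 1, 3 and 4 called 0. Leaving out 1 library at a time gave between 0 and 61 higher genes and between 0 and 14 lower, the most without aged library 2. Sephs2 was called by DESeq2, with legacy=FALSE, without a filter and without aged library 2 or 5, and by no other alternative. Its sign held in all of them. The gene was chosen for its rise and every aged library lay above every young one, so nothing is read from the kept sign. The sign of Gpx1 turned (0.03) without aged library 5, in a range from -0.23 on leaving out 1 library. That of Selenop turned with DESeq2 size factors (-0.01), DESeq2 (-0.01), FPKM (-0.09), without aged libraries 1, 3 and 4 (-0.02), and on leaving out 1 library (lowest -0.03, highest 0.10). Sephs2 ranked 3 in place of 4 in aged libraries by CPM, and 4 in each group on leaving out any library. Of the 5 genes nearest to Sephs2, Spearman's rho kept 0 over the 12 libraries and 3 after subtracting group means, and 0 and 0 were kept without aged libraries 1, 3 and 4. By CPM, Selenop held 74.0% of the selenoprotein total in aged and 73.7% in young libraries.

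With the replicate number as a block, edgeR called 1 higher and 0 lower genes and the log2 fold change of Sephs2 was 1.84. Same-numbered libraries did not deviate together (correlations from -0.041 to 0.094), so the numbers were not taken as pairs. A count of 0 allows up to 3 counts in any library. Sparse genes were on or off at like totals, as Sephs1 with 0 counts in young library 2 and 780 in young library 7, and the cause was not tested.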
